A study of Homo sapiens with 24 samples.

Results

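The 35 genes described here encode the core machinery of DNA replication and S phase, from the factors that license origins to those that copy DNA, supply nucleotides and repackage new chromatin. They were taken by symbol from a table of 26364 genes; all 35 were found there, and all 35 were among the 15757 genes that passed the filter on low counts and were tested. RNA was measured in nTERT-1 cells, a line of human keratinocytes (the main cell type of the epidermis) immortalised with telomerase reverse transcriptase, at 3 stages of a differentiation course. Subconfluent cells do not yet cover the dish, Confluent cells do, and Differentiated cells were taken on day 4 according to the authors' sample sheet. The 4 genotypes are NT, KAT2A_KD, KAT2B_KD and KAT2AB_KD, that is, knockdown of the lysine acetyltransferase KAT2A, of its paralog KAT2B, or of both. The labels do not expand NT, which served here as the reference, and give neither the knockdown method nor whether a genotype is 1 clone. Each of the 12 genotype and stage groups had 2 libraries, 24 in all, of poly(A)-selected RNA.

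Origins are licensed in G1, when CDC6 and CDT1 load the MCM2-7 helicase onto them. At the start of S phase MCM10, CDC45 and the GINS complex switch the helicase on, primase and the polymerases synthesise DNA held by the PCNA clamp, and FEN1 and LIG1 join the lagging strand fragments. Many of these genes are transcribed under E2F factors, which RB family proteins restrain, and keratinocytes stop dividing as they leave the basal layer and differentiate.

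Libraries held from 8010178 to 16054003 counts assigned to genes. The 35 genes took 0.191% to 0.246% of counts in Subconfluent libraries, 0.183% to 0.234% in Confluent ones and 0.0181% to 0.033% in Differentiated ones. Levels below are in CPM, counts scaled to a common library total with the TMM method, whose factors ran from 1.04 to 1.2 (Subconfluent), 0.936 to 1.22 (Confluent) and 0.666 to 0.992 (Differentiated). They compare 1 gene between libraries, not different genes, since they are not divided by gene length. The labels do not say whether the 2 libraries of a group came from separate cultures, so the p-values measure the spread between these libraries, which may be technical.

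The targeted genes were lower in the libraries labelled as their knockdown, though not by a called difference at every stage. KAT2A stood at 38.5 and 36.4 CPM in Confluent NT and at 4 and 5.06 CPM in Confluent KAT2A_KD (log2 change -3.05, SE 0.48, edgeR adjusted p = 0.00245). In Differentiated cells KAT2A was already lower in NT (12.8 and 10 CPM) and its difference from KAT2A_KD (3.03 and 4.94 CPM) did not pass (adjusted p = 0.139). KAT2B was at 44.8 and 40.4 CPM in Differentiated NT and at 4.58 and 8.59 CPM in Differentiated KAT2B_KD (log2 change -2.68, SE 0.50, edgeR adjusted p = 0.00332), while at the low Confluent level (4.32 and 4.06 against 0.668 and 1.25 CPM) the KAT2B difference did not pass (adjusted p = 0.22). The Differentiated KAT2AB_KD libraries differed from each other: KAT2A was at 1.98 and 6.85 CPM and KAT2B at 5.85 and 18.9 CPM, both higher in replicate 2. The Confluent KAT2AB_KD libraries differed in the other order, with KAT2A and KAT2B together at 10.3 and 2.57 CPM (42.8 and 40.4 in Confluent NT). In Subconfluent KAT2AB_KD their sum was 10.2 and 11.6 CPM. All 16 keratinocyte differentiation genes checked rose from Confluent to Differentiated NT cells, where 24.3% of all tested genes were called higher. Of markers of other cells, TYR (melanocytes) had 0 reads in all 24 libraries and the summed level of the 5 melanocyte markers was 2.75 to 12.9 CPM. The 6 fibroblast markers summed to 1.14 to 7.34 CPM before differentiation and 31.5 to 53.3 CPM in Differentiated libraries, nearly all from the collagen gene COL1A1 (31 to 51.1 CPM there); its part in the results was not tested.

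Between Subconfluent and Confluent cells no change of a replication gene passed the main test. The test (edgeR's quasi-likelihood test, Benjamini-Hochberg adjustment over 15757 genes, threshold 0.05) called 0 of the 35 in NT, KAT2A_KD, KAT2B_KD and KAT2AB_KD, against 0.901%, 0.235%, 1.61% and 0.609% of all genes called in either direction. Unadjusted p was under 0.05 for 1, 0, 4 and 1 of them, against 1827, 984, 2071 and 1343 of 15757 genes. DESeq2 called 0, 0, 1 (UHRF1) and 0 of the 35. Their median log2 differences were 0.07, -0.12, -0.09 and -0.08, with a median SE of 0.26 in each genotype. Changes of the size of that error were not detectable, and the larger ones of POLA1 and UHRF1 below did not pass either. The lowest p in NT belonged to POLA1, the catalytic subunit of DNA polymerase alpha, at 26.2 and 21.2 CPM in Subconfluent and 15.4 and 12 CPM in Confluent libraries (log2 difference -0.79, SE 0.27, edgeR adjusted p = 0.209). UHRF1, which recruits maintenance methylation to newly made DNA, came closest in KAT2B_KD, at 66.9 and 70.2 against 34.6 and 42.1 CPM (log2 difference -0.84, SE 0.24, edgeR adjusted p = 0.0965). In both cases the groups did not overlap, but neither difference passed.

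**Figure D1:**
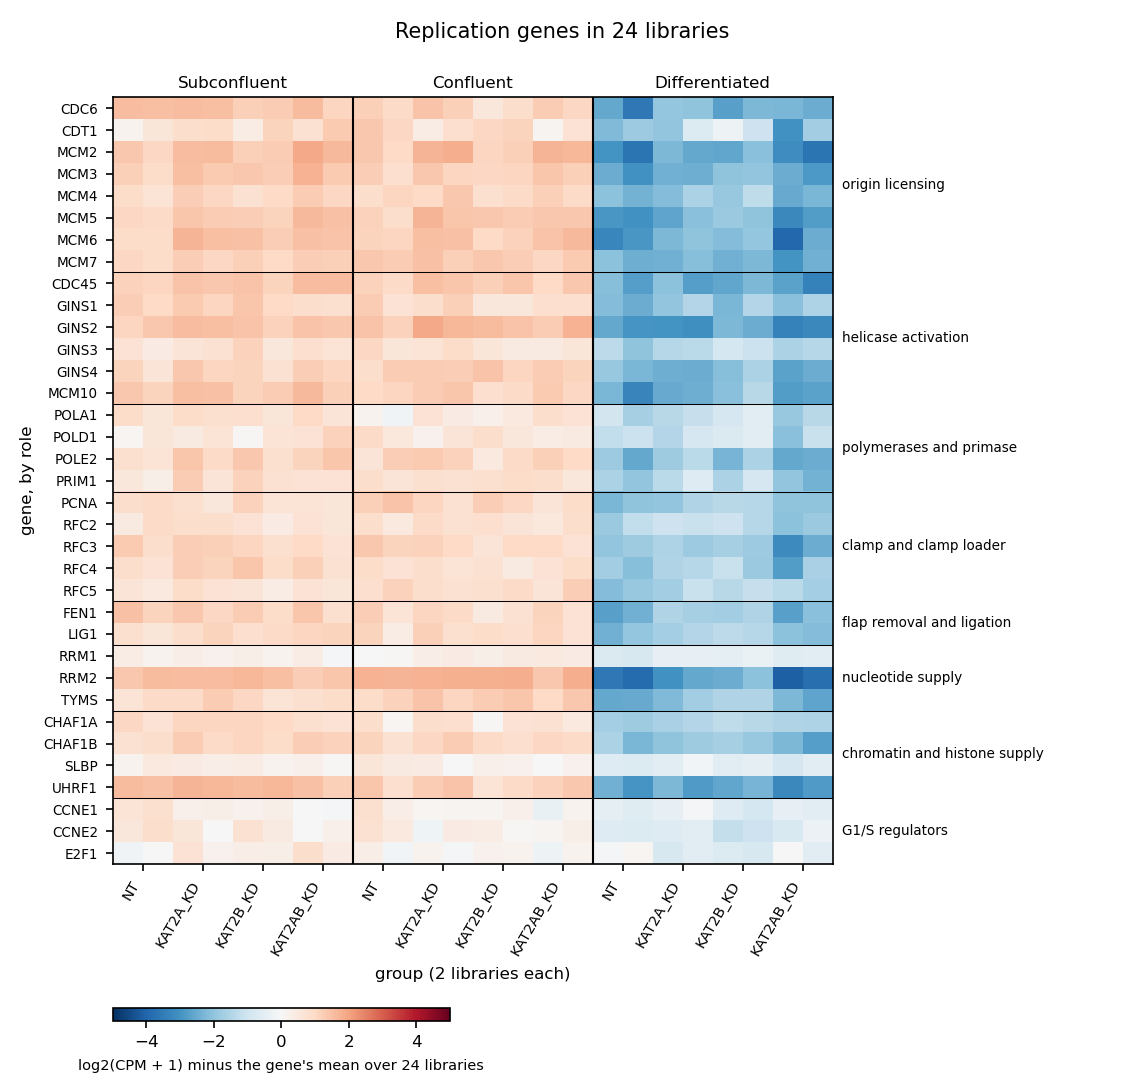
Level of each of the 35 genes (rows, grouped by role) in each of the 24 libraries (columns, 2 per group), as log2(CPM + 1) minus the gene's mean over all libraries; red is above and blue below that mean. The 8 Differentiated libraries at the right are darkest for genes such as RRM2 and MCM2 and palest for RRM1, SLBP and the G1/S regulators; E2F1 and CCNE1 are the 2 genes whose Differentiated libraries overlap the other 16.

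At the Differentiated stage nearly the whole set fell. Against Confluent cells, 34 of 35 genes fell in NT, 34 in KAT2A_KD, 35 in KAT2B_KD and 33 in KAT2AB_KD, where 26.1%, 21.7%, 20.3% and 23.6% of all tested genes were called lower. None rose, where 24.3%, 21.4%, 19.3% and 22.6% of all genes did. The median log2 change was -3.62 in NT, -3.11 in KAT2A_KD, -2.55 in KAT2B_KD and -3.6 in KAT2AB_KD, while the median over all genes lay between -0.02 and 0. For 33 of the 35, each of the 8 Differentiated libraries was below the lowest of the 16 others, which 14.6% of all genes also did; the 2 exceptions were CCNE1 and E2F1. In bulk RNA, fewer cells in S phase and less RNA per cell cannot be told apart. In NT all 34 calls stayed when any 1 of the 4 libraries was left out. In KAT2A_KD 30 of 34 stayed in every such fit: CCNE2 was lost without KAT2A_KD Confluent replicate 2 (adjusted p = 0.299) or either Differentiated library (0.118 and 0.0812). SLBP (0.258 and 0.253) and E2F1 (0.124 and 0.126) were lost without Confluent replicate 1 or Differentiated replicate 1, and CDT1 without Differentiated replicate 1 (0.0666). CDT1 in KAT2B_KD was lost without Differentiated replicate 2 (0.0768), and CCNE2 in KAT2AB_KD without Confluent replicate 2 (0.112) or Differentiated replicate 1 (0.225).

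Because the members fell together, their promoters were searched for short motifs in the RefSeq windows from 250 bases before to 50 bases after each transcription start (GRCh38.p14, whereas the counts were made on hg19). Windows were found for 31 of the 35 genes and cover 40 starts; MCM4, MCM5, GINS4 and CCNE2 had none in the table. The E2F-type letters TTTGGCGC, TTTCCCGC, TTTCGCGC or TTTGCCGC, on either strand, occurred in 17 of the 31 genes (54.8%), against 3.99% of 27305 genes with a window. All 6 licensing genes with a window held one (CDC6, CDT1, MCM2, MCM3, MCM6 and MCM7), while RRM2, RRM1, FEN1, CDC45 and MCM10 did not. The letters CCAAT were found in 17 of 31 genes (54.8%, against 39.7% of all), and the letters TTTGAA or TTCGAA, those of the cell cycle homology region known from mitotic promoters, in 2 of 31, MCM6 and RRM1 (6.45%, against 19.5%). The windows below are shown because they belong to genes named in the comparisons that follow; capitals mark the E2F-type letters, each sequence runs 5′ to 3′ on the gene's own strand, and a match describes letters only.
MCM6 (chr2:135876514-135876603, minus strand, 160 to 71 bases before the start): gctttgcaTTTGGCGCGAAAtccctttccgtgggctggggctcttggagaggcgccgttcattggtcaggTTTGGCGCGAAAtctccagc
PCNA (chr20:5126653-5126692, minus strand, 70 to 31 bases before): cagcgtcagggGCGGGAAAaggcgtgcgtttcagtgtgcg
TYMS (chr18:657593-657632, plus strand, 60 to 21 bases before): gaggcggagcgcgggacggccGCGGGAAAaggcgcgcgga
RFC3 (chr13:33818079-33818118, plus strand, 70 to 31 bases before): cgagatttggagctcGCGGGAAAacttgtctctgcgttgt
GINS2 (chr16:85688965-85689004, minus strand, 50 to 11 bases before): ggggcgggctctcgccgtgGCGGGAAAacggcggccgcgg
E2F1 (chr20:33686396-33686435, minus strand, 50 to 11 bases before): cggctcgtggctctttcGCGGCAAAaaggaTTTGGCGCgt
In MCM6 the same 12 letters stand at 2 places, each holding TTTGGCGC and, overlapping it, TTTCGCGC read on the other strand. PCNA, TYMS, RFC3 and GINS2 share GCGGGAAA, the reverse complement of TTTCCCGC. E2F1 carries 2 different E2F-type matches. It is the member not called lower in NT, as given below. Whether matches relate to the changes in level was not tested.

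Origin licensing genes had a median log2 change of -4.16 in NT, from -3.25 to -5.3, and all 8 fell in every genotype. MCM2, a helicase subunit, stood at 52.6 and 40.6 CPM in Confluent NT and at 1.66 and 0.66 CPM in Differentiated NT (log2 change -5.30, SE 0.33, edgeR adjusted p = 1.84e-10). MCM4, another subunit of the same ring, kept more of its RNA, with 105 and 121 against 13.3 and 10.5 CPM (-3.25, SE 0.26, adjusted p = 3.96e-09). CDC6, the ATPase that loads the ring, dropped from 28.7 and 24.8 CPM to 1.23 and 0.0943 CPM in NT, the last being 1 read. Its Differentiated libraries in KAT2A_KD (2.46 and 2.25 CPM) lay above both NT ones, a difference that did not pass (adjusted p = 0.0903). CDT1, which works with CDC6, also differed between libraries of a group: Differentiated KAT2A_KD had 1.72 and 5.75 CPM and Differentiated KAT2AB_KD 0.33 and 2.21 CPM.

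Helicase activation genes fell by a similar amount, with a median of -4.26 in NT. MCM10, which helps switch the helicase on, went from 18.9 and 19.9 CPM to 1.05 and 0 CPM in NT (log2 change -5.14, SE 0.49, edgeR adjusted p = 5.72e-08). The smallest change in the group was that of GINS3, from 11.4 and 8.12 to 1.4 and 0.471 CPM (-3.35, SE 0.38). GINS2, of the same 4-subunit complex, went from 44.8 and 37.2 to 1.93 and 1.23 CPM in NT and from 62.4 and 53.3 to 1.15 and 1.08 CPM in KAT2A_KD (log2 changes -4.68 and -5.69). All 6 genes of the group fell in each genotype, and no Differentiated library of any of them overlapped an earlier one.

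Polymerase and primase genes changed less evenly, with a median of -2.49 in NT. POLE2, the second subunit of the leading strand polymerase epsilon, went from 8.4 and 13.1 CPM to 0.701 and 0 CPM in NT (log2 change -4.86, SE 0.62, edgeR adjusted p = 2.42e-06). In KAT2AB_KD it came down to 0 and 0.0761 CPM, 1 read in all against 397 in the Confluent libraries, a ratio of 0.00332 (95% counting interval 8.38e-05 to 0.0186). POLA1 retained much more, with 15.4 and 12 against 6.75 and 3.58 CPM in NT (-1.40, SE 0.29, adjusted p = 0.000445). PRIM1, the primase subunit that makes the RNA primer, and POLD1, the catalytic subunit of polymerase delta, lay between them at -2.93 and -2.05.

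Clamp and clamp loader genes had a median of -3.31 in NT and the narrowest span of the larger groups. RFC3, a subunit of the loader that opens PCNA, fell from 26.1 and 21.6 to 1.66 and 2.07 CPM (log2 change -3.67, SE 0.33, edgeR adjusted p = 2.8e-08). RFC2, another subunit of that loader, fell from 33 and 25.3 to 4.12 and 6.98 CPM (-2.40, SE 0.27). PCNA itself went from 319 and 377 to 28 and 33.9 CPM in NT, and over all 8 Differentiated libraries it ranged from 28 to 52.4 CPM with a median of 34.3. The flap nuclease FEN1 went from 41.8 and 28.4 to 1.84 and 2.45 CPM (-4.03, SE 0.33), and the ligase LIG1 from 26.1 and 15.2 to 1.4 and 2.26 CPM (-3.49, SE 0.30).

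The nucleotide supply genes held the deepest fall of the set in NT and, apart from E2F1, its smallest change. RRM2, the regulatory subunit of ribonucleotide reductase whose level normally follows S phase, fell from 223 and 222 CPM in Confluent NT to 4.64 and 3.68 CPM in Differentiated NT (log2 change -5.73, SE 0.26, edgeR adjusted p = 8.65e-12). RRM1, the catalytic subunit of the same enzyme, went only from 117 and 118 to 68.1 and 66 CPM (-0.81, SE 0.17, adjusted p = 0.000543), and its change was between -0.78 and -1.05 in all 4 genotypes. The changes of these partner subunits differed by far more than their errors. TYMS, thymidylate synthase, fell from 98.6 and 115 to 7.97 and 8.11 CPM (-3.73, SE 0.24).

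Chromatin and histone supply genes also spread widely, from -1.23 to -4.23 in NT. UHRF1 fell from 58.1 and 39.3 to 3.24 and 1.89 CPM in NT (log2 change -4.23, SE 0.29, edgeR adjusted p = 6.97e-10), whereas SLBP, which binds the stem-loop of histone mRNAs, went from 51 and 46.2 to 20.8 and 20.6 CPM (-1.23, SE 0.20, adjusted p = 3.14e-05). CHAF1A and CHAF1B, subunits of the complex that places histones on new DNA, fell by 3.17 and 3.38 on the log2 scale.

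The G1/S regulators changed least, with a median of -1.36 in NT. CCNE2, a cyclin that activates CDK2, went from 14.4 and 11.7 to 4.82 and 4.71 CPM (log2 change -1.45, SE 0.30, edgeR adjusted p = 0.000408). Its relative CCNE1 fell in NT, from 10.4 and 7.12 to 3.59 and 3.21 CPM, and in KAT2B_KD, but its changes of -0.44 in KAT2A_KD and -0.47 in KAT2AB_KD did not pass (adjusted p = 0.216 and 0.177). E2F1, the transcription factor, was at 17.9 and 12.7 CPM in Confluent NT and 13.6 and 15 CPM in Differentiated NT (-0.10, SE 0.26, adjusted p = 0.777). Those libraries overlapped, as did the ones of KAT2AB_KD (11.8 and 16.1 against 14.1 and 9.58 CPM). In KAT2A_KD (15.9 and 13.3 against 7.61 and 9.07 CPM) and KAT2B_KD (16.5 and 15.9 against 8.51 and 7.62 CPM) E2F1 fell by 0.81 and 1.01, but the difference of either change from that in NT was not called.

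**Figure D2:**
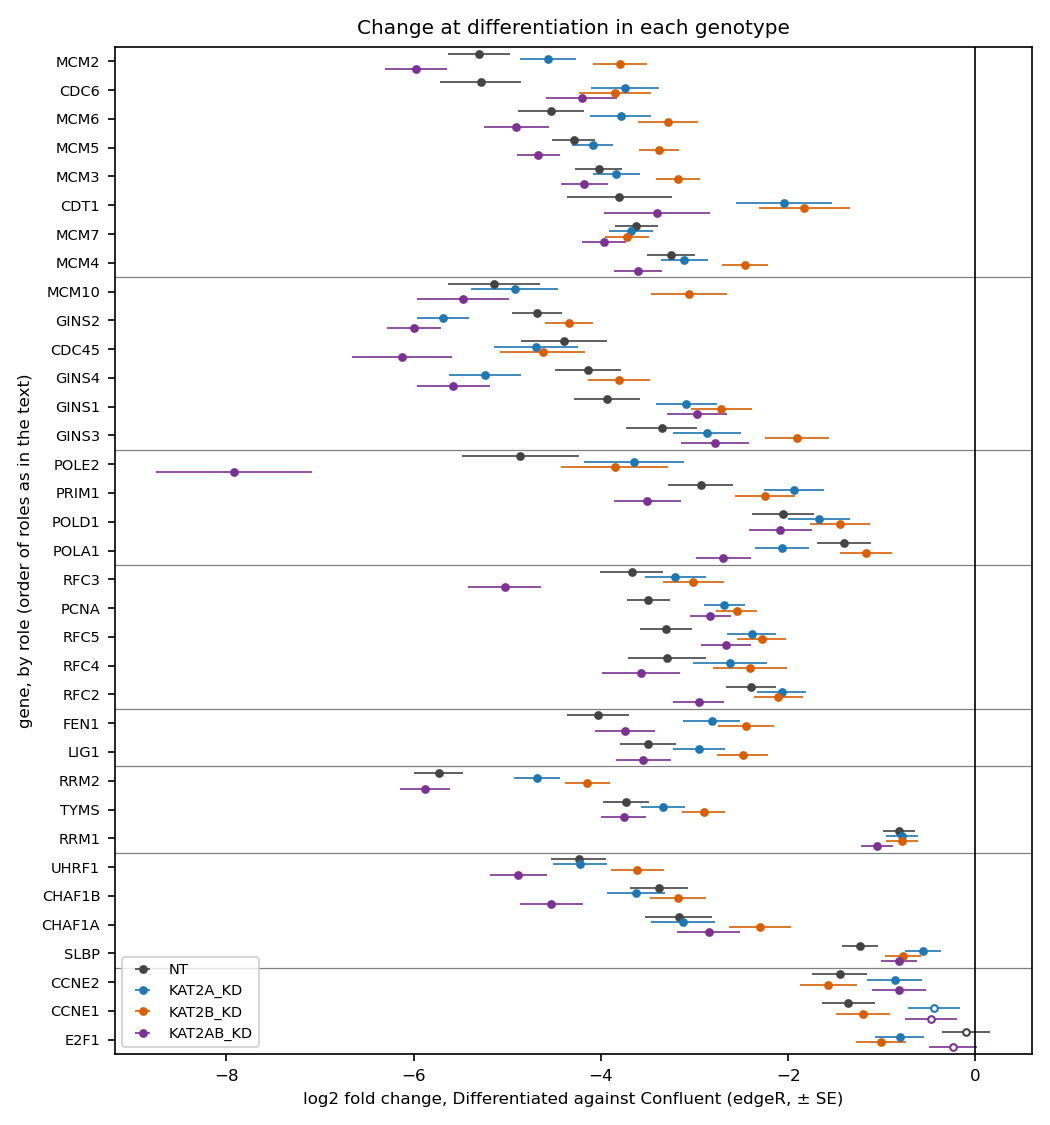
Log2 fold change of each gene (rows, grouped by role) from Confluent to Differentiated cells in the 4 genotypes, with standard errors; filled points passed the test and open ones did not. The changes run from -7.91 for POLE2 in KAT2AB_KD to -0.10 for E2F1 in NT, and RRM1, SLBP and the G1/S regulators lie nearest 0.

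Before differentiation no difference of these genes between a knockdown and NT passed the test in edgeR. At the Subconfluent stage edgeR called 0 of 35 in KAT2A_KD, KAT2B_KD and KAT2AB_KD (background called in either direction 0.343%, 0.0888% and 2.7%). An unadjusted p under 0.05 was found for 2, 0 and 6 of the 35, against 896, 705 and 2315 of 15757 genes. DESeq2 called 0, 0 and 1 (MCM5). At the Confluent stage edgeR again called 0 in each (background 0.647%, 0.463% and 2.28%). There unadjusted p was under 0.05 for 4, 0 and 5, against 1221, 1076 and 2060 of all genes. DESeq2 called 0, 0 and 1 (POLA1) at that stage. The member nearest the threshold was CCNE1 in Subconfluent KAT2AB_KD, at 5.64 and 5.14 CPM against 9.45 and 10.2 CPM in NT (log2 difference -0.87, SE 0.27, adjusted p = 0.0959). Without a test, both KAT2A_KD libraries lay above both NT ones for 20 of the 35 at the Subconfluent stage (17.1% of all genes did so), with a median log2 difference of 0.24, and for 10 at the Confluent stage (20%), with a median of 0.17. The counts were 9 (11.6%) and 7 (17.3%) in KAT2B_KD, with medians of 0.09 and -0.06, and 14 (24.2%) and 5 (20.1%) in KAT2AB_KD, with medians of 0.17 and 0.04. In Subconfluent KAT2AB_KD cells E2F1 lay on the other side of NT from CCNE1, at 26.7 and 19 against 12.4 and 14.4 CPM (0.77, SE 0.25, adjusted p = 0.121).

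In Differentiated cells some replication genes were called between a knockdown and NT, most of them in KAT2B_KD. The 3 knockdowns are each set against the same 2 NT libraries, so the comparisons share them. In KAT2B_KD 7 of 35 genes were higher than in NT (1.67% of all genes were called higher), 0 were lower (3.18% of all genes), and the median difference was 0.74 on the log2 scale, against 0.02 over all genes. In KAT2A_KD 1 was higher (background 0.92%), with a median of 0.41. In KAT2AB_KD 1 was lower (background 1.17%), with a median of -0.19. Both KAT2B_KD libraries lay above both NT libraries for 21 of the 35, where 20.6% of all genes did so, and in KAT2A_KD for 20 (22.6%). The corresponding count in KAT2AB_KD was 5 (21.9%).

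RRM2 showed the clearest order. It stood at 4.64 and 3.68 CPM in Differentiated NT, 7.29 and 10.4 in KAT2A_KD, 11 and 15.2 in KAT2B_KD and 2.97 and 3.96 in KAT2AB_KD, so the single knockdowns lay above NT and did not overlap it, while the double knockdown did overlap. Against NT the log2 difference was 1.65 (SE 0.24, edgeR adjusted p = 0.000601) in KAT2B_KD, 1.08 (SE 0.25, adjusted p = 0.0387) in KAT2A_KD and -0.26 (SE 0.26, adjusted p = 0.704) in KAT2AB_KD. The KAT2B_KD call stayed in each fit without 1 of the 4 libraries. The KAT2A_KD call was lost without NT Differentiated replicate 1 (adjusted p = 0.0914), NT Differentiated replicate 2 (0.305) or KAT2A_KD Differentiated replicate 2 (0.255).

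The other 6 genes higher in KAT2B_KD were licensing, clamp, flap and nucleotide genes. MCM5 had 4.2 and 3.77 CPM in the NT libraries and 9.73 and 8.67 CPM in those of KAT2B_KD (log2 difference 1.20, SE 0.23, edgeR adjusted p = 0.00366). TYMS was at 7.97 and 8.11 against 17.5 and 17.4 CPM (1.12, SE 0.23, adjusted p = 0.00741), and MCM2 at 1.66 and 0.66 against 2.43 and 3.96 CPM (1.45, SE 0.37, adjusted p = 0.0258). In all of these the KAT2B_KD libraries were the higher ones without overlap. Nearer the threshold were MCM6, at 2.63 and 3.68 against 6.73 and 8.22 CPM (adjusted p = 0.0466), PCNA, at 28 and 33.9 against 52.4 and 51.3 CPM (0.0477), and FEN1, at 1.84 and 2.45 against 4.49 and 5.46 CPM (0.0481). Without NT Differentiated replicate 2, MCM5 (adjusted p = 0.0544), TYMS (0.058) and MCM2 (0.277) lost their calls; TYMS also did without NT Differentiated replicate 1 (0.0556) and MCM2 without KAT2B_KD Differentiated replicate 2 (0.204). MCM6, PCNA and FEN1 lost theirs in each of the 4 fits without 1 library, at 0.0895 to 0.299, 0.0946 to 0.264 and 0.0954 to 0.292.

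The count of 7 rests on few libraries. It was 5 without KAT2B_KD Differentiated replicate 1, 3 without KAT2B_KD Differentiated replicate 2 and 1 without NT Differentiated replicate 2. Without NT Differentiated replicate 1 it was 7, of which 3 (MCM2, MCM5 and RRM2) were among the 7 above and 4 (CDC6, GINS3, MCM10 and MCM3) were others. DESeq2 called 12. Over the 35 genes NT Differentiated replicate 2 lay below replicate 1 by a mean of 0.43 on the log2 scale, the largest such gap of the 12 groups. The direction of the called genes was not shared by all members: E2F1 was at 8.51 and 7.62 CPM in KAT2B_KD and 7.61 and 9.07 CPM in KAT2A_KD against 13.6 and 15 CPM in NT, lower without overlap, with log2 differences of -0.83 (SE 0.26, edgeR adjusted p = 0.0827) and -0.78 (SE 0.26, adjusted p = 0.172) that did not pass.

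**Figure D3:**
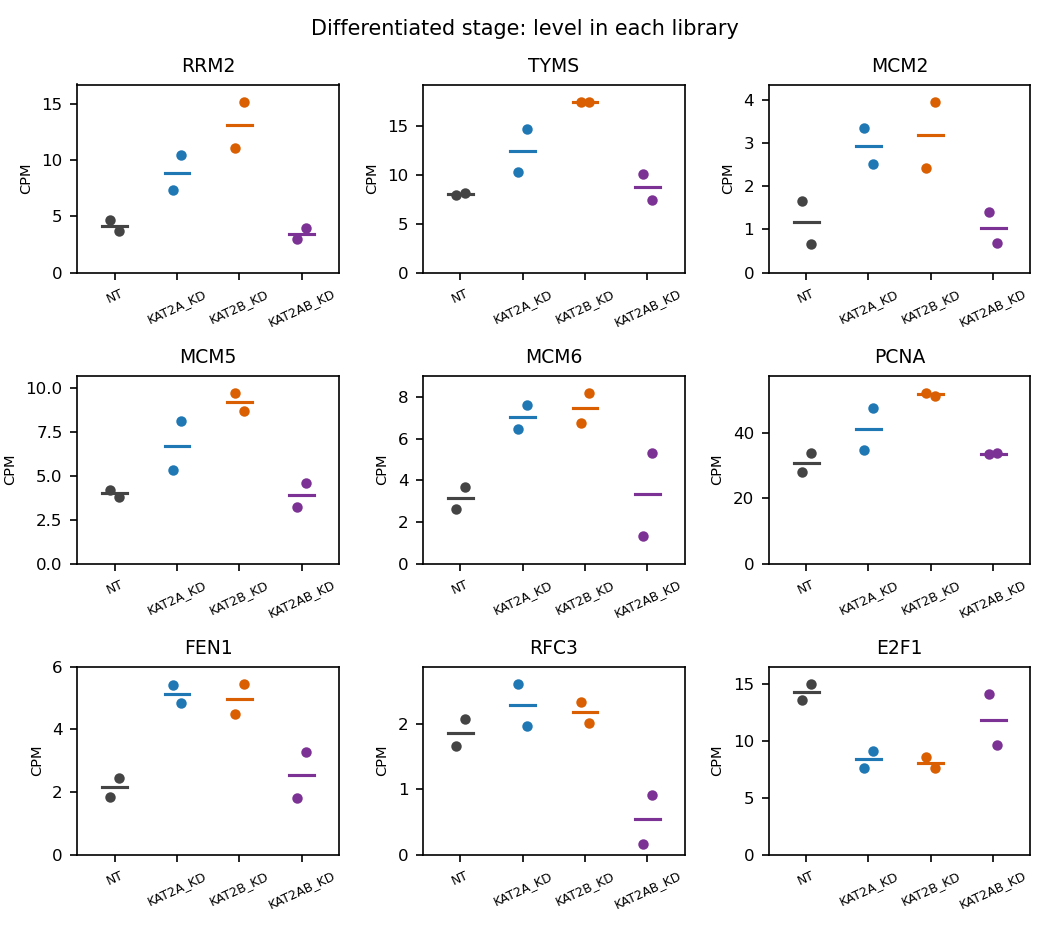
CPM in each Differentiated library (points, 2 per genotype; the bar is their mean) of 8 replication genes called between genotypes and of E2F1. For RRM2 the KAT2B_KD libraries sit at 11 and 15.2 CPM and the NT ones at 4.64 and 3.68, while for RFC3 the KAT2AB_KD libraries lie lowest and for E2F1 the NT libraries are high.

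The gene lower in KAT2AB_KD than in NT was RFC3, at 0.165 and 0.913 CPM (2 and 12 reads) against 1.66 and 2.07 CPM in NT (log2 difference -1.74, SE 0.46, edgeR adjusted p = 0.0453). That call was lost without KAT2AB_KD Differentiated replicate 1 (adjusted p = 0.274), NT Differentiated replicate 1 (0.112) or NT Differentiated replicate 2 (0.282).

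Set against each other, the double knockdown lay below the KAT2B knockdown in Differentiated cells. Of the 35 genes, 17 were lower in KAT2AB_KD than in KAT2B_KD and 0 higher (background lower 4.54%, higher 6.5%), with a median log2 difference of -0.96 against 0 over all genes. Both KAT2AB_KD libraries lay below both KAT2B_KD ones for 27 (background 21.6%). The 17 comprised 6 of 8 licensing genes, 3 of 6 helicase activation genes, 2 of 4 polymerase and primase genes, 2 of 5 clamp and loader genes, 1 of 2 for flap removal and ligation, 2 of 3 nucleotide supply genes, 1 of 4 chromatin genes and 0 of 3 G1/S regulators. RRM2 differed most firmly, with 2.97 and 3.96 against 11 and 15.2 CPM (log2 difference -1.92, SE 0.25, edgeR adjusted p = 6.09e-05). MCM5 was at 3.21 and 4.56 against 9.73 and 8.67 CPM (-1.23, SE 0.22, adjusted p = 0.0013) and GINS2 at 0.659 and 0.837 against 2.62 and 2.09 CPM (-1.63, SE 0.33, adjusted p = 0.00334). These 3 were called in each of the 4 fits without 1 library. The count was 9 without KAT2AB_KD Differentiated replicate 1, 11 without replicate 2, 11 without KAT2B_KD Differentiated replicate 1 and 7 without replicate 2.

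Of the other 14, the 5 with the lowest adjusted p are given here; several had few reads in the double knockdown. RFC3 was at 0.165 and 0.913 against 2.34 and 2.02 CPM in KAT2B_KD (log2 difference -1.96, SE 0.44). GINS4, of the GINS complex, was at 0.247 and 0.456 against 0.842 and 1.72 CPM (-1.85, SE 0.48), and CDT1 at 0.33 and 2.21 against 7.95 and 4.26 CPM (-2.22, SE 0.58). MCM2 was at 1.4 and 0.685 against 2.43 and 3.96 CPM and TYMS at 10.1 and 7.38 against 17.5 and 17.4 CPM. All 5 were lower without overlap, and each lost its call in at least 1 fit without a library: RFC3 without KAT2AB_KD or KAT2B_KD Differentiated replicate 1 (adjusted p = 0.0728 and 0.0509), CDT1 without the same libraries (0.139 and 0.182), GINS4 without KAT2AB_KD Differentiated replicate 1 or KAT2B_KD Differentiated replicate 2 (0.117 and 0.235), MCM2 without replicate 2 of either (0.0998 and 0.0825) and TYMS without KAT2AB_KD Differentiated replicate 2 (0.0987).

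Between KAT2AB_KD and KAT2A_KD fewer genes were called. In Differentiated cells the median log2 difference over the 35 was -0.59, with 32 negative and 3 positive. Unadjusted p was under 0.05 for 16 of them, against 1533 of 15757 genes. At the Differentiated stage 1 was lower in KAT2AB_KD, RRM2 (log2 difference -1.35, SE 0.25, edgeR adjusted p = 0.0317; background 0.19%), and both KAT2AB_KD libraries lay below both KAT2A_KD ones for 22 of 35 (background 17.1%). That call was lost without KAT2AB_KD Differentiated replicate 1 (adjusted p = 0.188) or KAT2A_KD Differentiated replicate 2 (0.194). Between KAT2A_KD and KAT2B_KD edgeR called 0 of 35 at each stage (background 0.533%, 0.286% and 2.38%). An unadjusted p under 0.05 was found for 0, 2 and 8, against 757, 1049 and 2255 of 15757 genes. DESeq2 called 0, 0 and 1 (MCM10). The member nearest the threshold was GINS2 in Differentiated cells, at 1.15 and 1.08 CPM in KAT2A_KD against 2.62 and 2.09 in KAT2B_KD (log2 difference -1.07, SE 0.32, adjusted p = 0.0882). At the Subconfluent and Confluent stages 0 of 35 differed between KAT2AB_KD and either single knockdown by edgeR or DESeq2. The edgeR background was 0.0% and 0.00635% against KAT2A_KD, then 2.61% and 1.61% against KAT2B_KD. Against KAT2A_KD unadjusted p was under 0.05 for 0 and 0 of the 35 (819 and 491 of all genes). Against KAT2B_KD it was so for 1 and 1 (2314 and 1648 of all genes).

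Whether the fall at differentiation itself differed from that in NT was tested directly. RRM2 fell less in KAT2B_KD than in NT, with log2 changes of -4.15 and -5.73 (difference 1.59, SE 0.32, edgeR adjusted p = 0.026; 0.552% of all genes had such a higher difference), and it was the 1 member called. The call was also made without KAT2B_KD Differentiated replicate 1 (adjusted p = 0.0321) and lost in each of the other 7 fits without 1 library, from 0.0504 without NT Differentiated replicate 1 to 0.134 without NT Differentiated replicate 2. Over all 35 genes the difference between KAT2B_KD and NT had a median of 0.83, with 31 positive and 4 negative. Unadjusted p was under 0.05 for 17 of them, against 1813 of 15757 genes, whose median was 0.03. In KAT2A_KD and KAT2AB_KD 0 of 35 were called (background in either direction 0.616% and 1.33%) by edgeR and by DESeq2. There unadjusted p was under 0.05 for 10 and 9 of the 35, against 1499 and 1910 of 15757 genes. The median differences over the 35 were 0.47 and -0.24. For the step from Subconfluent to Confluent 0 of 35 changes differed from NT in any knockdown, where 0 of 15757 genes did (0.0%). For that step unadjusted p was under 0.05 for 0, 0 and 4, against 391, 381 and 869 of all genes. DESeq2 called 0 of the 35.

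Genes around the set were read the same way. Of 44 other replication genes, 41 fell and 1 rose from Confluent to Differentiated NT cells, where 26.1% of all genes fell and 24.3% rose, with a median log2 change of -2.84. ORC1, the origin recognition ATPase, went from 21.3 and 17.7 to 0.701 and 0.471 CPM, and TK1, thymidine kinase, from 152 and 135 to 5.08 and 5 CPM. The riser was POLD4, a small polymerase delta subunit, from 47.3 and 36.9 to 94.6 and 94.5 CPM (log2 change 1.17), a call lost without NT Confluent replicate 2 (adjusted p = 0.0557). All 28 mitosis genes fell in each genotype (background lower 20.3% to 26.1%), with a median of -5.57 in NT: CDC20, the activator of the anaphase-promoting complex, went from 194 and 214 to 2.19 and 1.23 CPM. Of 27 E2F, RB and cyclin regulators 14 fell and 7 rose in NT. The share that rose is near the 24.3% of all genes that did and is no result about these regulators. The 7 became 3 to 5 without 1 library (3 without NT Confluent replicate 1, 4 without NT Differentiated replicate 1). The 7 were the CDK inhibitors CDKN1A, CDKN1B, CDKN1C, CDKN2A, CDKN2B and CDKN2D and the RB relative RBL2. CDKN2B, which blocks CDK4 and CDK6, went from 7.54 and 13.9 to 387 and 273 CPM in NT, and CCNA2, the S phase cyclin, from 73.5 and 87.6 to 2.98 and 1.23 CPM.

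In Differentiated KAT2B_KD cells 13 of the 28 mitosis genes were higher than in NT and 0 lower (1.67% and 3.18% of all genes), with a median log2 difference of 1.38. For the same comparison DESeq2 called 407 of 15015 genes higher, and edgeR with no filter on low counts 414 of 21173. The 13 became 9 without KAT2B_KD Differentiated replicate 1, 6 without KAT2B_KD Differentiated replicate 2, 11 without NT Differentiated replicate 1 and 4 without NT Differentiated replicate 2, and 18 with DESeq2 and 21 with no filter on low counts. TPX2, a spindle assembly factor, was at 10.6 and 9.94 CPM against 3.94 and 2.73 in NT (log2 difference 1.61, SE 0.26, edgeR adjusted p = 0.000994) and kept its call without any 1 library. Of the 44 other replication genes 3 were higher, TIPIN, GMNN and PRIM2, and each lost its call without NT Differentiated replicate 2 (adjusted p = 0.23, 0.107 and 0.366). That count was 0 in the fit without it, 6 and 5 without KAT2B_KD Differentiated replicate 1 and 2 (1 of the 3 genes among them in each case, GMNN and TIPIN), 9 with DESeq2 and 10 with no filter. The keratinocyte differentiation genes moved the other way, with 9 of 16 lower in KAT2B_KD than in NT and 0 higher (background lower 3.18%, higher 1.67%), at a median of -1.15. The 9 became 5 without KAT2B_KD Differentiated replicate 2, 6 without either NT Differentiated library and 7 without KAT2B_KD Differentiated replicate 1. KAT2A_KD had 3 mitosis genes higher (TPX2, CCNB1 and CDK1) and 1 other replication gene (SAMHD1, which breaks down deoxynucleotides), where 0.92% of all genes were called higher. Without NT Differentiated replicate 2 these 4 lost their calls (adjusted p = 0.149, 0.323, 0.375 and 0.426). CDK1 was called in none of the 4 fits without 1 library, and CCNB1 in 1, that without KAT2A_KD Differentiated replicate 2. TPX2 was also lost without KAT2A_KD Differentiated replicate 2 (0.0908), and SAMHD1 without either KAT2A_KD Differentiated library (0.2 and 0.143). In KAT2AB_KD edgeR called 0 of 28 mitosis genes against NT, where 247 of 15757 genes were called higher and 184 lower. Unadjusted p was under 0.05 for 4 of the 28, against 2485 of 15757 genes, and DESeq2 called 1 of the 28, CCNB1. Against KAT2B_KD 13 of 28 were lower in KAT2AB_KD (4.54% of all genes), a count that was smaller in each fit without 1 library.

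**Figure D4:**
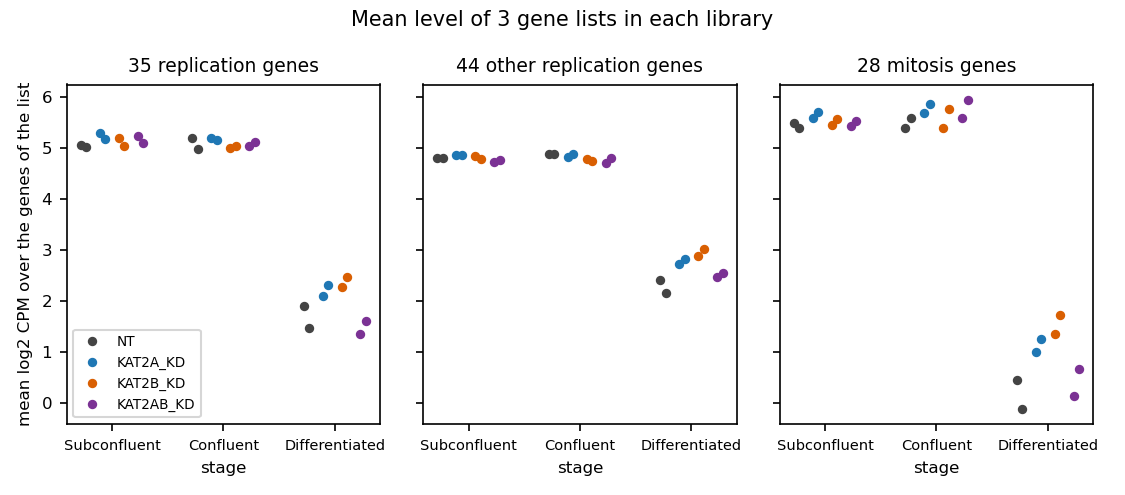
Mean log2 CPM over the 35 replication genes, 44 other replication genes and 28 mitosis genes in each library, by stage and genotype (points, 2 per group). The 35 genes lie between 4.98 and 5.31 before differentiation and between 1.35 and 2.47 after it, where the KAT2B_KD libraries are at 2.29 and 2.47 and the NT ones at 1.91 and 1.48.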

How the data were processed

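Poly(A)-selected RNA of 24 libraries was sequenced from 1 end, per the labels. The authors' deposited table holds raw read counts per gene; the submitters' processing notes name FastQC, Bowtie2, featureCounts, DESeq2 and the hg19 build, with no versions. A second deposited table holds a normalized signal, the counts divided by size factors, which was used only to check the count table (largest relative deviation 4.98e-07). Of the columns in the count table, 1 matched no sample and was not used. Samples were grouped by the genotype and stage labels. Replicates are numbered 1 and 2 in accession order, where the authors' sample sheet numbers them 2 and 3.

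Counts of all 24 libraries were fitted together in edgeR 4.0.16 (R 4.3.3) with TMM scaling, filterByExpr and 12 groups, which share 1 estimate of spread; 32 comparisons were tested by quasi-likelihood, with Benjamini-Hochberg adjustment over 15757 genes and a threshold of 0.05. Log2 means used a prior count of 2. The procedure was tested on simulated counts in which all genes had the same spread, so the test does not cover genes that vary more. Alternatives were relative log expression (RLE) scaling, no filter on low counts, DESeq2 1.42.0, a replicate block and leaving out each library. Same-numbered libraries were checked for pairing: over 66 pairs of groups the median correlation of their deviations was 0.118 (-0.256 to 0.406), and 37 exceeded 0.1. They were not treated as pairs in the main fit, and a shared replicate effect was allowed for only in the replicate block. The library preparation was directional, per the labels, but whether strand was used in counting is not given in the sources used here; intervals from reads cover counting error only. The 35 genes, the gene lists and the tests were chosen with earlier results of these data known. Genes with full values are, in each role, those with the largest and smallest change at differentiation in NT, those that did not fall, the 8 called between genotypes with the lowest adjusted p, and the gene with the lowest p from Subconfluent to Confluent in NT; from other lists at most 4 per comparison by p.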

Additional observations from a re-analysis of the deposited data

Results flagged for a closer look

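The change of RRM2 from Confluent to Differentiated cells differed between KAT2B_KD and NT by a test of the difference itself, 1.59 on the log2 scale (SE 0.32, edgeR adjusted p = 0.026). Both genotypes showed a fall, with log2 changes of -4.15 in KAT2B_KD and -5.73 in NT. In Confluent cells the 2 genotypes lay close together (229 and 236 CPM in KAT2B_KD, 223 and 222 in NT), and in Differentiated cells apart (11 and 15.2 against 4.64 and 3.68 CPM). The adjusted p was 0.000359 with DESeq2, 0.017 with a replicate block and 0.00338 with no filter on low counts, and from 0.0321 to 0.134 over the 8 fits without 1 library.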

How the results depend on the processing

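Of the 32 counts of called replication genes, 17 were the same under RLE scaling, no filter, DESeq2, the replicate block and each fit that left out a library. No filter and DESeq2 each called 1 in Confluent against Subconfluent KAT2B_KD (UHRF1, lower), 5 higher in Differentiated KAT2A_KD against NT, and 1 lower in Differentiated KAT2A_KD against KAT2B_KD (MCM10), where edgeR with its filter called 0, 1 and 0. DESeq2 called 1 higher in KAT2AB_KD against NT at the Subconfluent stage (MCM5) and 1 at the Confluent stage (POLA1), and 12 higher in Differentiated KAT2B_KD. For Differentiated KAT2AB_KD against KAT2A_KD the count of 1 became 7 with no filter, 4 with DESeq2 and 2 with the replicate block. The difference of the change at differentiation from that in NT was called for 1 gene in KAT2A_KD with no filter (CDT1), and for 5 with no filter and 4 with DESeq2 in KAT2B_KD. These settings also called more genes over the whole table. In Differentiated KAT2A_KD against NT, edgeR with its filter called 145 of 15757 genes higher. With no filter it was 339 of 21173, and with DESeq2 324 of 14605. For Differentiated KAT2AB_KD against KAT2A_KD the genes called lower went from 30 to 146, 89 and 50 with no filter, DESeq2 and the replicate block. The cause was not tested. The replicate block changed no other count by over 1.5 times, and the libraries share only a number.

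Without 1 library, counts ran from 0 to 1 in Differentiated KAT2A_KD against NT, 1 to 7 in KAT2B_KD against NT, 0 to 1 in KAT2AB_KD against NT, 0 to 3 in KAT2AB_KD against KAT2A_KD and 7 to 11 in KAT2AB_KD against KAT2B_KD. The differences of the change at differentiation from NT gave 0 to 1 in KAT2A_KD, 0 to 2 in KAT2B_KD and 0 to 2 in KAT2AB_KD. No replication gene called in the main fit changed direction under these alternatives. Uncalled changes could do so: without NT Confluent replicate 1, the level of E2F1 in NT was higher in Differentiated than in Confluent cells. The single call in KAT2AB_KD against NT was not always RFC3: it was CDC6, higher, without NT Differentiated replicate 1, which leaves 1 CDC6 read in NT, and CDC45, lower, without KAT2AB_KD Differentiated replicate 1, which leaves 0 CDC45 reads in that group. Where leaving out a library left 1 in a group, it was assumed to vary like the others. At the Differentiated stage the reads of single replication genes, not the library totals, limit precision: POLE2 had from 0 to 15 reads per library, CDC45 0 to 19 and MCM10 0 to 37.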
